A study of Mus musculus with 6 samples.

Results

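The array used in this study carries 16181 probes that are named by a genomic interval and a strand instead of a gene, among 55681 non-control probes in all. These 60-base probes were chosen by the form of their name alone (chromosome, start, end and F or R for the forward or reverse strand), and the array design describes each of them as a lincRNA, a long intergenic noncoding RNA. They cover 3540 intervals on the mm9 mouse genome, of which 1067 have probes for both strands and 2473 for a single strand. The intervals run from 62 to 7128487 bases, with a median of 7316 bases, and 2101 of them overlap another interval. The 19 autosomes hold 15604 of the probes and the X chromosome 577, while the Y chromosome holds 0.

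RNA came from 1676 cells, a mouse pre-B cell line grown out of bone marrow with the genotype SLP-65-/- LAT-/-, and all 6 arrays share this double deficiency, culture in excess IL-7, retroviral transduction and puromycin selection. In 2 arrays the cells carried the empty control vector, in 2 a construct expressing hsa-miR-26a-2 (miR-26a) and in 2 a sponge that sequesters the miR-26 family (miR-26 sponge). The replicate numbers 1 and 2 stand for 2 experiments with separately made transduced cells, so all results describe a single line. The titles of both control arrays point to an earlier deposit, and their experiment numbers were taken from these labels. No array of a scrambled sponge was analysed here, and the comparison vector of the sponge is thus the empty vector. The pre-B cell genes Vpreb1, Vpreb2, Igll1, Il7r, Pax5, Ebf1, Rag1, Rag2 and Dntt were detected on every array, as were 1 of 3 T cell markers (Cd3e), 2 of 3 myeloid markers (Csf1r and Itgam) and 0 of 3 erythroid markers.

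LincRNAs are transcribed from stretches between protein-coding genes, and many are capped, spliced and polyadenylated like messenger RNAs. Some act in the nucleus as scaffolds for chromatin proteins or as structural parts of nuclear bodies, some host small RNAs, and for many no function is known. The intervals behind such probes are broad stretches thought to hold a transcript and not mapped exons, so a probe may lie in an exon, in an intron or outside any RNA. MiRNAs of the miR-26 family guide the silencing complex to RNAs that pair with their seed, bases 2 to 8, and a sponge offers many such sites at once.

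The sequences that carry the results are given 5′ to 3′ in the sense of the RNA that the probe detects. The mature miRNAs (RefSeq) show the shared seed in capitals, and the next entries show in capitals the bases complementary to it in interval probes that fell with miR-26a, with, in the first of them, the A opposite base 1 of the miRNA. For the forward interval on chromosome 8 only 30 bases around the match are shown. In the pair from chr5:149751979-149808240, capitals mark the bases that the forward and the reverse probe share as complements. The remaining entries, in lower case throughout, are probes from intervals with large changes or several called probes, and hold no such match.
mmu-miR-26a-5p: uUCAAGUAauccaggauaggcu
mmu-miR-26b-5p: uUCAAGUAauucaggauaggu
chr8:59994612-59994641, forward, in chr8:59994102-59994797: tcccaaacctgTACTTGAAgtttgttagaa
chr8:82918846-82918905, reverse, in chr8:82854412-82919089: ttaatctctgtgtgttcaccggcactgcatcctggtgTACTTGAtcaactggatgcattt
chr5:149770741-149770800, forward, in chr5:149751979-149808240: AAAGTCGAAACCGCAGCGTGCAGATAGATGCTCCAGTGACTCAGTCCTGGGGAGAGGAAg
chr5:149770740-149770799, reverse, in chr5:149751979-149808240: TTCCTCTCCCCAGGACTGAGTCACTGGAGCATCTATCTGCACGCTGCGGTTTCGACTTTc
chr5:149765999-149766058, reverse, in chr5:149765314-149771786: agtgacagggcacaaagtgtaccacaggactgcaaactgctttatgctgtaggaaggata
chrX:100756347-100756406, reverse, in chrX:100756245-100819095: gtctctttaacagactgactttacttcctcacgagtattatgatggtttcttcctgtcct
chr17:26913439-26913498, forward, in chr17:26911397-26917047: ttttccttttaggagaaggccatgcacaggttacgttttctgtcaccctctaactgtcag
chr17:95257849-95257908, reverse, in chr17:95255725-95272425: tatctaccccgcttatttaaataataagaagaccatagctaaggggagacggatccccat
chr14:115445732-115445791, forward, in chr14:115443612-115445950: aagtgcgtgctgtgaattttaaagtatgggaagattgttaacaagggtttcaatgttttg
chr2:158181576-158181635, reverse, in chr2:158169020-158191295: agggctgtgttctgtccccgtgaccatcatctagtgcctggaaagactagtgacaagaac

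Most of the intervals gave a signal somewhere, but most of their probes did not. Of these probes, 4740 (29.3%) exceeded background clearly (the scanner flag "well above background") on all 6 arrays, 2425 (15.0%) on 1 to 5 arrays and 9016 (55.7%) on none. The other probes of the array were well above background on all 6 in 51.2% of cases (20222 of 39500) and on none in 40.5%. At least 1 probe was detected on all 6 arrays in 1933 intervals (54.6%). Single arrays detected 33.8% to 36.7% of the interval probes, with the lowest share on the miR-26 sponge array of experiment 1 and the highest on that of experiment 2, and 53.9% to 55.2% of the other probes.

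Autosomal and X-linked intervals were detected alike in share, with 29.3% of autosomal probes (4575 of 15604) and 28.6% of X-linked probes (165 of 577) on all 6 arrays. Among single chromosomes the share ran from 20.3% on chromosome 10 to 38.8% on chromosome 19. Reverse-strand probes were detected in 30.9% of cases and forward-strand probes in 27.7%. Detection seldom separated the groups. In the miR-26a arrays 30 interval probes were well above background on both arrays and on none of the other 4, and 24 were missing only there. The corresponding counts were 40 and 18 for the control arrays and 21 and 30 for the miR-26 sponge arrays, all out of 16181 interval probes. Among the 39500 other probes the counts were 38 and 56 for miR-26a, 44 and 24 for control and 53 and 38 for the sponge.

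**Figure D1:**
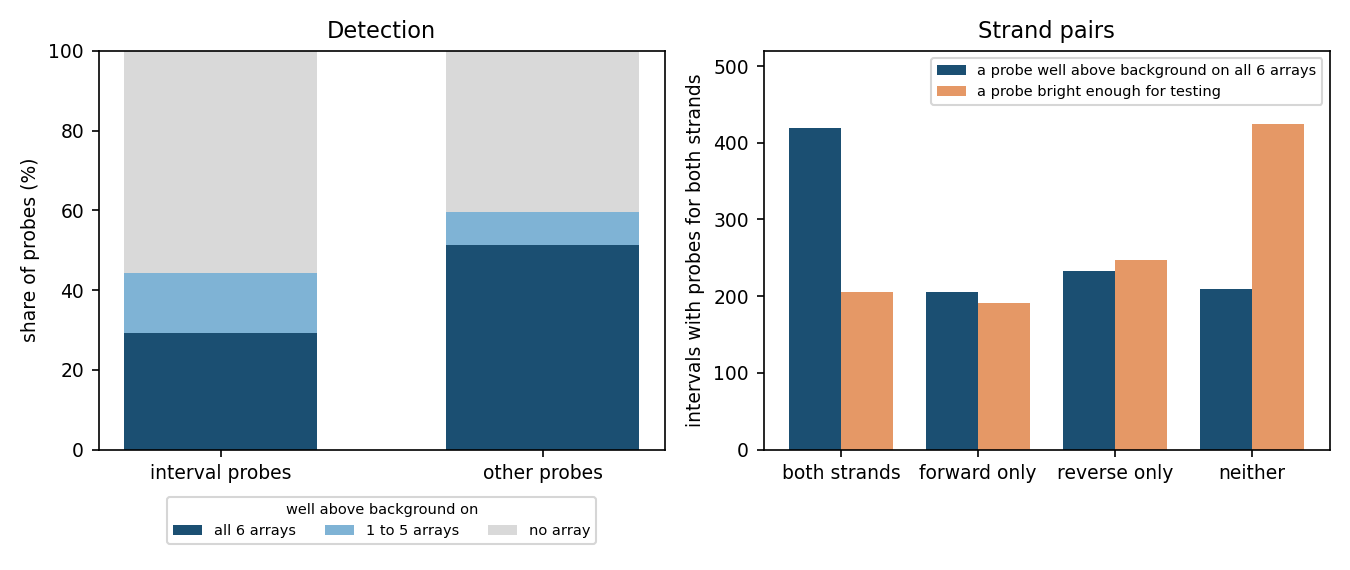
Left, the share of probes (%) well above background on all 6, on 1 to 5 or on none of the arrays, for the 16181 interval probes and the 39500 other probes; right, the 1067 intervals with probes for both strands, counted by the strand that held at least 1 probe well above background on all 6 arrays (dark) or bright enough for testing (light). Detection on all 6 arrays was 29.3% for interval probes and 51.2% for the others, and 419 intervals were detected on both strands.

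Where an interval had probes for both strands, both were detected (at least 1 probe on all 6 arrays) in 419 of 1067 intervals (39.3%), the forward strand alone in 205, the reverse strand alone in 233 and neither in 210. With the brightness required for testing, the counts were 205, 191, 247 and 424. Probes that cover the same bases on opposite strands give a closer view of strand. Among 1724 such pairs sharing at least 30 bases, 178 (10.3%) were detected on both strands, 290 on the forward strand only, 350 on the reverse strand only and 906 on neither. Single-strand detection was thus more frequent than detection on both strands among these pairs. Since only 29.3% of interval probes were detected on all 6 arrays, this order would also arise if the strands were detected independently. The counts therefore do not show strand-specific transcription. The labelled RNA was made by reverse transcription and in vitro transcription, and probe affinities were not compared.

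Within an interval, detection was often patchy. Of 3382 interval strands with at least 3 probes, 352 had every probe on all 6 arrays, 1519 had none and 1511 had some. Strands with 10 probes detected in full numbered 6, namely chr17:26911397-26917047 forward, chr4:129497990-129515290 forward, chr5:74487385-74497428 forward, chr6:116092274-116144199 reverse, chr8:119732348-119749198 forward and chr19:53517903-53540753 reverse. Parts of primary miRNA transcripts were among the detected probes. Of 16 interval probes that share at least 25 bases with a miRNA hairpin of RefSeq, 7 were detected on all 6 arrays, among them reverse-strand probes of chrX:50087925-50101700 over Mir363 and Mir92-2, members of a cluster related to the oncogenic miR-17 cluster. The hairpin probes of the Mirlet7a-1 and Mirlet7c-2 locus in chr15:85412264-85549139 were well above background on at most 2 arrays.

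Changes were tested for the 2797 interval probes (17.3%) that passed the limits on signal, which lie in 1304 intervals on 1509 strands. Each of these had the well-above-background flag on every array. Values below are log2 of the quantile-normalised signal, and a change is the difference of 2 such values, so that 1 stands for a doubling. P-values come from limma with the experiment as a block and are adjusted over all 20168 tested probes. Bulk RNA cannot tell fewer cells making an RNA from less of it per cell. Both contrasts use the same control arrays.

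With miR-26a, 116 interval probes fell and 88 rose against control. This is 4.15% and 3.15% of the interval probes tested. Over all tested probes 5.14% fell and 4.5% rose, so both shares lay below those of the whole table. Tested interval probes were dimmer, with a median control log2 signal of 7.29 against 10.22 for the others. In the dimmest of 4 brightness classes, which held 1568 interval probes, 2.30% of them fell against 4.92% of other probes. From there to the brightest class the falls were 6.56%, 7.71% and 3.68% against 6.54%, 6.24% and 3.55%. The rises, from dimmest to brightest, were 2.49%, 4.05%, 5.43% and 0.61% against 7.83%, 6.43%, 4.39% and 1.31%. The lower share of falls was thus limited to the dimmest class. All 204 called probes moved the same way in both experiments, which selection by the blocked fit favours. Their median change was -0.54 for the falls and 0.48 for the rises. Among them 66 fell and 34 rose by at least 0.5, while 6 fell and 0 rose by at least 1. On the X chromosome 3 probes fell and 1 rose of 95 tested, against 113 and 87 of 2702 on the autosomes. The median over all tested interval probes was -0.01 (all tested probes 0.01).

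The calls lay in 114 intervals, and because intervals overlap and adjoining probes sample a shared RNA, the 200 called probes with a position form 107 runs when gaps of up to 10000 bases on a strand are bridged. The counts of falls and rises rest on the experiment block and on the control arrays. Without the block 21 fell and 3 rose, without control replicate 1 it was 4 and 1, without control replicate 2 it was 3 and 1, and without either miR-26 sponge array it was 58 and 40. The sign of all 204 probes was the same under each of these settings. Leaving out the block or a sponge array does not alter the miR-26a estimate. Only the settings without a control array could therefore have changed a sign. Of the 204, 152 also differed in the same direction between miR-26a and the miR-26 sponge at an adjusted p under 0.05 in limma. The 204 were selected on the same miR-26a arrays and in the same fit. Their selection therefore favours this outcome, and it is no separate support.

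**Figure D2:**
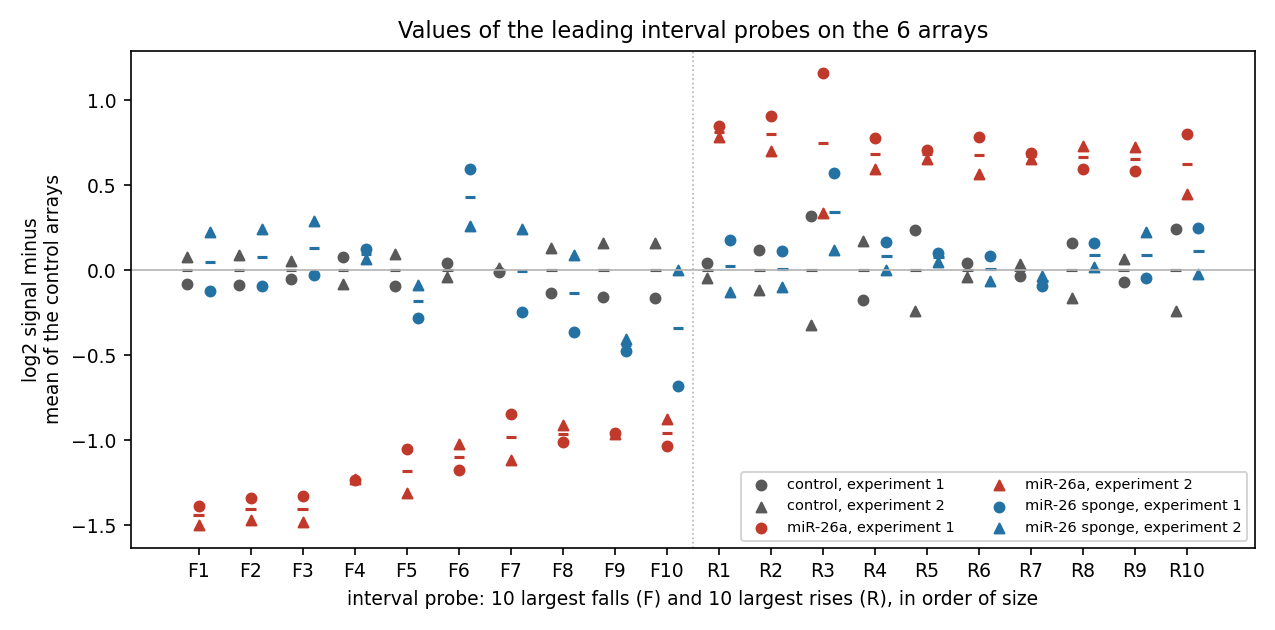
Log2 normalised signal of the 10 interval probes with the largest falls (F1 to F10) and the 10 with the largest rises (R1 to R10) with miR-26a, each minus the mean of its 2 control arrays; circles are experiment 1, triangles experiment 2 and short lines group means (n = 2 arrays a group). Both miR-26a arrays lie outside the range of the control arrays in every probe shown, and the mean of the miR-26 sponge arrays lies nearer to control in each.

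The largest fall was that of chr5:149765314-149771786 on the reverse strand, next to 1810059H22Rik, a gene known only by its cDNA clone name. Its probe at chr5:149765999-149766058 read 12.25 and 12.41 on the control arrays, 10.94 and 10.83 with miR-26a, and 12.21 and 12.55 with the miR-26 sponge. Both miR-26a values lay below the rest, and the control and sponge ranges overlapped. The change was -1.44 ± 0.12 (SE, adjusted p = 0.00555) with miR-26a and 0.05 ± 0.12 (adjusted p = 0.857) with the sponge, and the 2 constructs differed (adjusted p = 0.0033). The other 2 probes of this strand both changed by -1.41, and the nearest tested probe of 1810059H22Rik, 4446 bases or more away on the same strand, fell by 1.00.

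The next largest fall came from chr8:59994102-59994797 on the forward strand, which holds the 8-base match printed above. The probe with the match, chr8:59994598-59994657, read 10.32 and 10.16 in control, 9.0 and 9.01 with miR-26a, and 10.36 and 10.31 with the sponge. Its change was -1.23 ± 0.07 (adjusted p = 0.00317) with miR-26a and 0.10 ± 0.07 (adjusted p = 0.554) with the sponge. The neighbouring probe at chr8:59994677-59994736, which has no match, fell by 1.1 with miR-26a, from 10.12 and 10.04 to 8.90 and 9.05, and read 10.68 and 10.34 with the sponge (change 0.43 ± 0.12, adjusted p = 0.238). Hmgb2, a chromatin protein of the high mobility group, has its nearest tested probe 1669 bases away on the same strand, and that probe changed by -0.04 (adjusted p = 0.793).

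Other leading falls lay in chr9:121845920-121858120 forward, with changes of -1.18 ± 0.13 and -0.96 ± 0.10 at 2 probes. The first of them read 7.11 and 7.30 in control, 6.15 and 5.90 with miR-26a and 6.93 and 7.12 with the sponge. On this strand 4 of 5 probes fell, and so did 1700048O20Rik (-0.79), whose nearest probe lay 252 bases from a tested probe of the interval.

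The X-linked interval chrX:100756245-100819095 fell at 3 of 3 reverse-strand probes. Its leading probe read 7.37 and 7.69 in control, 6.57 and 6.56 with miR-26a and 7.05 and 7.12 with the sponge, giving -0.96 ± 0.10 (adjusted p = 0.008) for miR-26a and -0.44 ± 0.10 (adjusted p = 0.221) for the sponge. In the probe next to it the sponge change was -0.01 (adjusted p = 0.967). A further fall came from chr8:82836971-82849309 reverse, where 3 of 3 probes changed by -0.86 to -0.96. The adjacent interval chr8:82854412-82919089 fell on the same strand at 3 of 3 probes by 0.71 to 0.95. Its probe with the 7-base match read 8.01 and 8.07 in control, 7.31 and 7.36 with miR-26a and 7.79 and 8.21 with the sponge, and it fell least of the 3. Smarca5, the ATPase of a chromatin remodelling complex and the nearest named gene tested for both intervals, changed by 0.05 (adjusted p = 0.727).

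The rises were smaller. The largest were on the reverse strand of chr18:3003075-3016150, where 3 of 3 tested probes rose by 0.82, 0.80 and 0.68. The probe with the largest change read 8.21 and 8.12 in control, 9.01 and 8.95 with miR-26a and 8.34 and 8.03 with the sponge, and only the miR-26a arrays stood apart (0.82 ± 0.09, adjusted p = 0.00869). Crem, a cAMP-responsive transcription factor and the nearest named gene tested, lay 261402 bases or more away and changed by -0.39 (adjusted p = 0.211). A single probe of chr18:13107755-13107844 forward rose by 0.67 ± 0.07, from 7.36 and 7.44 to 8.09 and 8.05.

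The remaining leading rises came from probes with control values between 5.26 and 7.81. They were 0.75 in chr7:13533925-13544525 forward, 0.69 in chr2:158169020-158191295 reverse, 0.68 in chr4:11899775-11931875 forward, 0.66 in chr7:4827340-4863315 forward, 0.66 in chr1:88187397-88187862 reverse and 0.62 in chr6:127111250-127142925 forward. In chr7:13533925-13544525 the control arrays themselves read 6.34 and 5.70 and the miR-26a arrays 7.18 and 6.36, so that the groups separated narrowly and the adjusted p of 0.0152 rests on comparing arrays within an experiment. In chr1:88187397-88187862, by contrast, control read 7.67 and 7.81 and miR-26a 8.33 and 8.47, a change of 0.66 in each experiment (SE 0.07, adjusted p = 0.00943). The nearest named gene there was Ncl, which encodes nucleolin, an abundant protein of the nucleolus, at 53933 bases on the same strand, with a change of 0.41 (adjusted p = 0.0594).

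Several probes of an interval gave a check on single probes, although they share their RNA and are not replicates. Among 620 interval strands with at least 2 tested probes, 375 (60.5%) had all changes of the same sign with miR-26a, and the median SD among their changes was 0.08. For named genes with at least 2 tested probes the figures were 71.7% (2274 of 3173) and 0.06. With at least 3 tested probes the share of one sign was 58.6% for 360 interval strands and 55.2% for 611 named genes. Interval strands and genes were not matched for brightness or number of probes. A call on at least 2 probes was reached on 44 strands, 24 with falls and 20 with rises, and 0 strands had calls in both directions. On 21 of the 44 every tested probe was called. On 73 further strands a single probe was called, and 43 of these had other tested probes that were not.

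The strand with the most called probes was chr17:26911397-26917047 forward, where 10 of 10 probes within chr17:26912943-26913568 fell by 0.53 to 0.81 (adjusted p from 0.00748 to 0.0211). The probe shown above, chr17:26913439-26913498, read 10.01 and 10.15 in control, 9.12 and 9.43 with miR-26a, and 9.67 and 10.12 with the sponge. Its miR-26a arrays lay below all others, while the sponge values overlapped those of control. With the sponge the 10 changes ran from -0.25 to -0.05, and the smallest adjusted p was 0.255. Bnip1, a SNARE protein that binds BCL2-family members and the nearest named gene tested, changed by 0.09 (adjusted p = 0.491) with miR-26a at 15531 bases.

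In chr17:95255725-95272425 reverse, 5 of 5 probes fell by 0.69 to 0.83 with miR-26a and changed by 0.19 to 0.30 with the sponge, without passing there (smallest adjusted p = 0.226). The probe printed above read 10.25 and 9.93 in control, 9.31 and 9.22 with miR-26a and 10.54 and 10.16 with the sponge. In each experiment the sponge array read highest and the miR-26a array lowest.

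In chr19:53517903-53540753 reverse all 10 probes had negative changes, -0.21 to -0.53, of which 2 passed. In chr5:74487385-74497428 forward 9 probes changed by 0.14 to 0.53 and 7 rose, at the position of the probe for 2700023E23Rik, which rose by 0.52 itself. The other 3 of the fully detected strands had no call and mixed signs with miR-26a, with changes of -0.34 to 0.21 in chr4:129497990-129515290 forward, -0.30 to 0.01 in chr8:119732348-119749198 forward and -0.16 to 0.27 in chr6:116092274-116144199 reverse.

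**Figure D3:**
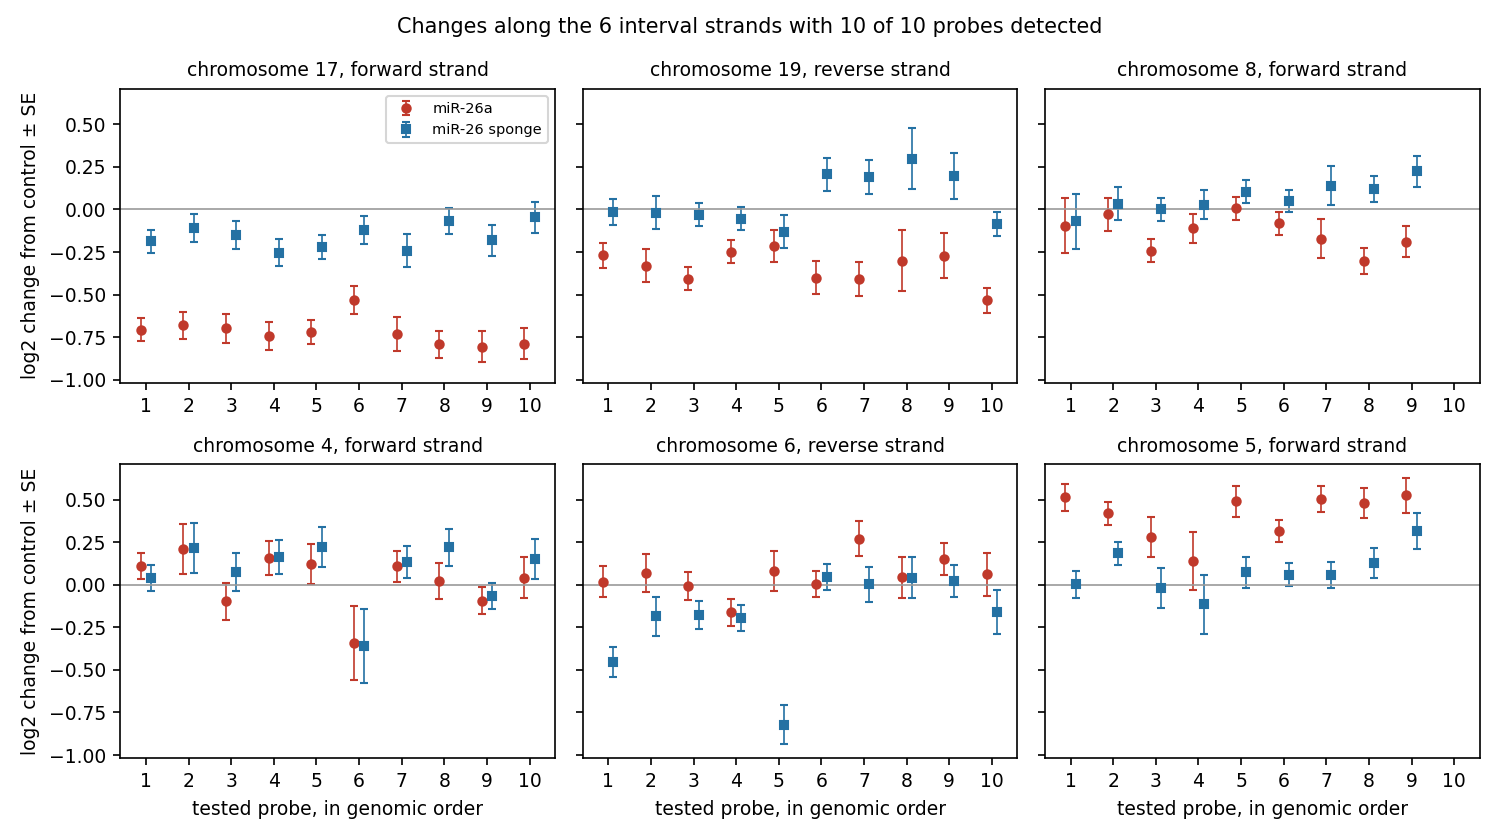
Change from control (log2, mean ± SE of the fit) at each tested probe along the 6 interval strands whose 10 probes were all well above background on all 6 arrays, for miR-26a (circles) and the miR-26 sponge (squares). All 10 probes of the chromosome 17 strand changed by -0.53 to -0.81 with miR-26a, and 7 of 9 on the chromosome 5 strand rose.

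The forward interval chr14:115443612-115445950 covers part of Mir17hg, the host transcript of the oncogenic miR-17 cluster. Its 3 probes rose by 0.43, 0.54 and 0.49 with miR-26a. The middle probe read 10.54 and 10.61 in control, 11.13 and 11.10 with miR-26a and 10.79 and 10.65 with the sponge, so the miR-26a arrays lay above the others (0.54 ± 0.08, adjusted p = 0.0177). The probe named Mir17hg, centred on the same base as the third, changed by 0.53 ± 0.12 with an adjusted p of 0.056. With the sponge the 3 interval probes changed by 0.12 to 0.18 (smallest adjusted p = 0.382).

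Both strands could be tested in 205 intervals. Their mean changes with miR-26a had the same sign in 107 of 205 (52.2%), and Pearson's r between the forward and the reverse mean change was 0.11 over these intervals, given as a description because intervals overlap and share the arrays. For the sponge r was -0.05. At least 1 probe was called in 29 of the intervals, on the forward strand alone in 9, on the reverse strand alone in 17 and on both in 3.

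The first of the 3 with calls on both strands was chr11:95627874-95640824, around Zfp652, a zinc finger transcriptional repressor. Here 6 of 7 forward probes rose (0.46 to 0.59 over all 7) and 3 of 5 reverse probes rose (0.42 to 0.63 over all 5). The Zfp652 probe nearest to the forward probes rose by 0.45 (adjusted p = 0.0447), and another Zfp652 probe changed by 0.19 (adjusted p = 0.194). The forward probe with the largest change read 11.03 and 11.03 in control, 11.73 and 11.52 with miR-26a, and 10.91 and 11.03 with the sponge.

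In chr5:149751979-149808240, which spans the leading chromosome 5 interval, the complementary probes printed above both fell. The forward probe was dim, since control means of tested interval probes had a median of 7.29 and a minimum of 5.20. The forward probe read 6.62 and 6.64 in control, 5.78 and 5.52 with miR-26a and 6.39 and 6.87 with the sponge (-0.98 ± 0.17, adjusted p = 0.0289, for miR-26a). The reverse probe read 11.58 and 11.45, 10.54 and 10.59, and 11.55 and 11.74 in the same order (-0.95 ± 0.09, adjusted p = 0.00748). At the next pairs the reverse probes fell by 0.49 and 0.62 and the forward probes changed by -0.27 (adjusted p = 0.111) and 0.08 (adjusted p = 0.55).

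The other interval with calls on both strands was chr6:4841700-4847400, at -0.44 (forward, adjusted p = 0.0196) and -0.56 (reverse, adjusted p = 0.0114) for probes that share 46 bases. Among the 64 complementary pairs with both probes tested, 9 had a call and 2 had it on both strands. In the 9 and 17 intervals where only the forward or only the reverse strand passed, the difference between the strands was not tested, and the 5 with the largest called changes are given here. In chr14:78924115-78938125 a forward probe of 81.7% GC fell by 0.84 (adjusted p = 0.00912) while the reverse probe over the same bases changed by 0.07 (adjusted p = 0.701). In chr2:181650800-181669350 a reverse probe rose by 0.62 and the forward probes changed by -0.18 and 0.12, and in chr2:35828611-35838083 a reverse probe rose by 0.61 and the forward probe changed by -0.16. In chr2:158169020-158191295 and chr7:4827340-4863315 the probes opposite to the called strand changed by -0.11 to 0.04 and by -0.10.

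**Figure D4:**
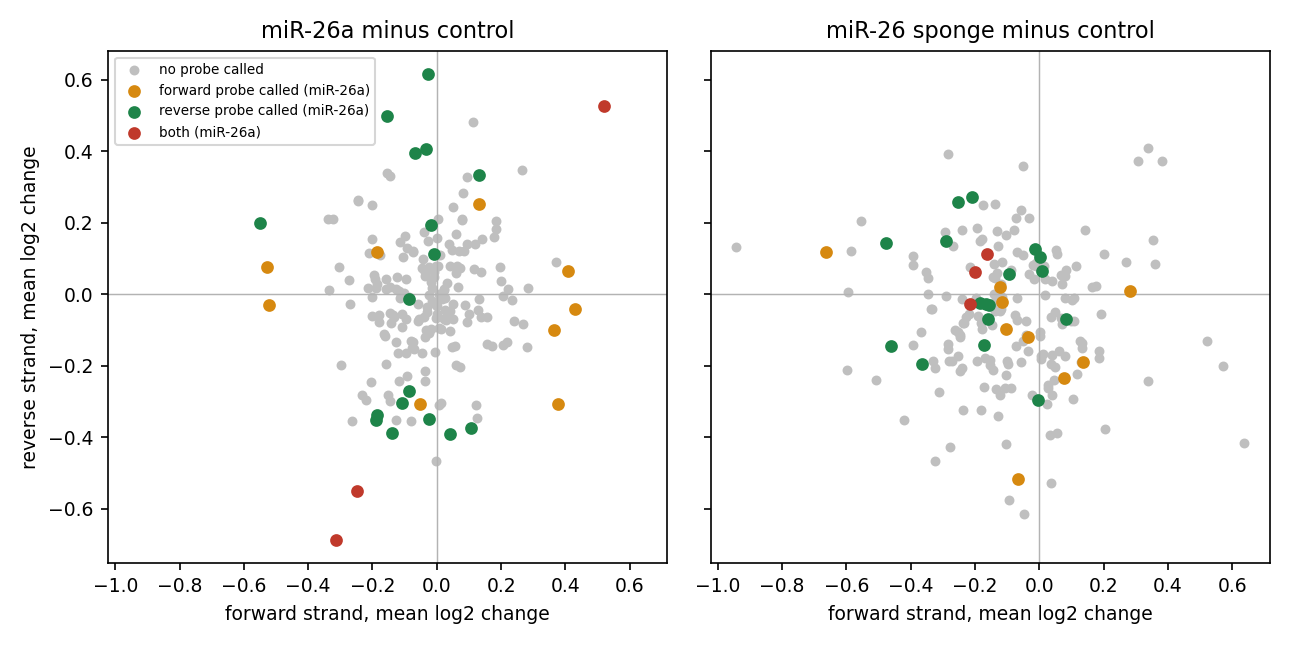
Mean change from control (log2) of the forward-strand probes against that of the reverse-strand probes for the 205 intervals with both strands tested, with miR-26a (left) and the miR-26 sponge (right); colours mark on which strand a probe was called with miR-26a, in both panels. Of the 3 intervals called on both strands with miR-26a, that on chromosome 11 lies on the diagonal (0.52 forward, 0.53 reverse), and those on chromosomes 5 (-0.31 and -0.69) and 6 (-0.25 and -0.55) have a larger mean fall on the reverse strand.

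Part of the called probes lay beside a gene called in the same direction. Of the 200 called probes with a position, 68 (34.0%) had their nearest tested named gene within 5000 bases on the same strand, and in 45 of these 68 the gene was called in the same direction. Of all tested interval probes with a position 546 (19.7%) had such a neighbour, called in the same direction as the probe's own change in 84. Probes of 60 bases cannot tell a separate interval RNA from an extension of the neighbouring transcript. Some gene probes lay almost on an interval probe, with midpoints 0 to 8 bases apart for 2700023E23Rik, Mir17hg, Acad12, Zfp652 and 2610306M01Rik. Such probes read largely the same bases, so a shared direction there is no separate observation. The counts within 5000 bases do not set these overlaps apart. At 15 of the 44 strands with several calls a named gene lay within 5000 bases on the same strand. The gene was called in the same direction at 10 of these, for example Herc6, an E3 ligase of the HERC family (strand mean -0.37, gene -0.37), and Btbd19 (0.39 and 0.40). The genes of the other 5 had the same sign without passing, with values near 0 for Hmgb2 (given above) and for Agfg1, which takes part in RNA export (strand mean -0.40, gene -0.04 with adjusted p = 0.773).

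Opposite movement also occurred. In chr4:11102287-11118421, on the reverse strand about 10431 bases from the nearest tested probe of Trp53inp1, 3 of 4 probes rose by 0.48 to 0.55, while Trp53inp1, a p53-induced stress protein encoded on the opposite strand, fell by 1.61 (adjusted p = 0.00317). The first of these probes read 6.18 and 6.45 in control, 6.88 and 6.84 with miR-26a, and 6.5 and 6.40 with the sponge. The interval probes and the gene are separate measurements and no test linked them.

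The 7-base word TACTTGA, complementary to the seed, occurred in 64 interval probes (0.396%) and in 0.446% of the other probes of the same length. Its reverse complement occurred in 0.396% of interval probes. Over all tested probes, 5.14% fell and 4.5% rose with miR-26a. Of the 9 tested interval probes with the word, 2 fell and 0 rose with miR-26a, with a median change of -0.14 against -0.01 over all tested interval probes. These were the 2 chromosome 8 probes printed above. Among other tested probes with the word, 17 of 80 fell and 2 rose (median -0.15). The word ACTTGAA, which overlaps it by 6 bases and was searched the same way, occurred in 110 interval probes (0.680%), of which 13 were tested, 2 fell and 1 rose, with a median change of -0.04. The shorter word ACTTGA was in 48 tested interval probes, of which 5 fell and 1 rose (median -0.04). Among 355 other tested probes with it, 48 fell and 4 rose (median -0.07). The 8-base word TACTTGAA was in 3 tested interval probes, of which 1 fell and 0 rose. Among 35 other tested probes with it, 12 fell and 1 rose. With the sponge, 2 interval probes with each of the 7-base words were higher and 2 lower at an unadjusted p under 0.05 in limma. A probe samples only 60 bases of an RNA, so these counts say nothing about sites elsewhere in it.

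Few interval probes lay at gene starts. The promoter windows of RefSeq (GRCm38.p6, 250 bases before to 50 after a start) held the full sequence of 168 interval probes, of which 69 (41.1%) were detected on all 6 arrays, against 29.2% of the 16013 not in such a window. For 89 of them the window's gene ran on the opposite strand, and 42 of these (47.2%) were detected. Of the 42 that could be tested, 1 fell and 0 rose with miR-26a (5.14% and 4.5% over all tested probes), the fall being in chr19:53517903-53540753 reverse, opposite to 4833407H14Rik (-0.53, adjusted p = 0.0146).

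Long noncoding RNAs that the array lists by gene name were read beside the interval probes. Of 36 listed names, 23 were on the array and 16 could be tested. Of these 16, 1 fell and 1 rose with miR-26a, while over all tested probes 5.14% fell and 4.5% rose. So few calls say nothing particular about these RNAs as a class. With miR-26a, Neat1, the architectural RNA of paraspeckles, fell by 0.52 ± 0.08 (adjusted p = 0.0198), and Snhg3, a host of small nucleolar RNAs, rose by 0.43 ± 0.09 (adjusted p = 0.0396). The other 14 did not pass, with values such as 0.01 for Malat1, an RNA of nuclear speckles, and 0.00 for Tug1. The median of the 16 was 0.04 with miR-26a and 0.16 with the sponge, and 0 passed with the sponge.

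With the miR-26 sponge no interval probe passed. At an adjusted p under 0.05, 0 fell and 0 rose in limma (0% and 0.00992% over all tested probes), the smallest adjusted p being 0.0724. At an unadjusted p under 0.05, 430 interval probes (15.4%) were lower and 231 (8.26%) higher, compared with 8.72% and 7.38% of all tested probes. All 661 had the same direction in both experiments, but selection by the blocked fit favours this, so it is no separate sign of reproducibility. The median over the interval probes was -0.03 (-0.05 in experiment 1 and -0.02 in experiment 2), that over the other tested probes 0.01. Without miR-26 sponge replicate 1 the unadjusted counts were 215 lower and 179 higher, and without control replicate 1 they were 205 and 152.

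The excess of lower values moved with base composition. Among interval probes with at most 35% GC, 5.15% were lower and 16.3% higher with the sponge, whereas above 50% GC it was 27.1% and 4.28%. The other probes of the array followed the same order, from 3.22% lower at the low end to 17.0% at the high end. Tested interval probes had a median GC of 45% and the other tested probes 41.7%. When a smooth trend of log2 signal on GC was taken out of each array, 287 interval probes were lower (10.3%, all probes 7.01%) and 261 higher (9.33%, all probes 7.46%), and the median change was 0.00. For miR-26a, 5.69% of interval probes were called lower and 4.88% higher at up to 35% GC, and 2.97% and 1.66% above 50% GC. The decline between these classes was not steady. In the other probes the lower share went from 6.48% to 4.13% and the higher share from 4.31% to 5.15%. After the trend was taken out, the miR-26a calls of interval probes numbered 125 falls and 84 rises.

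**Figure D5:**
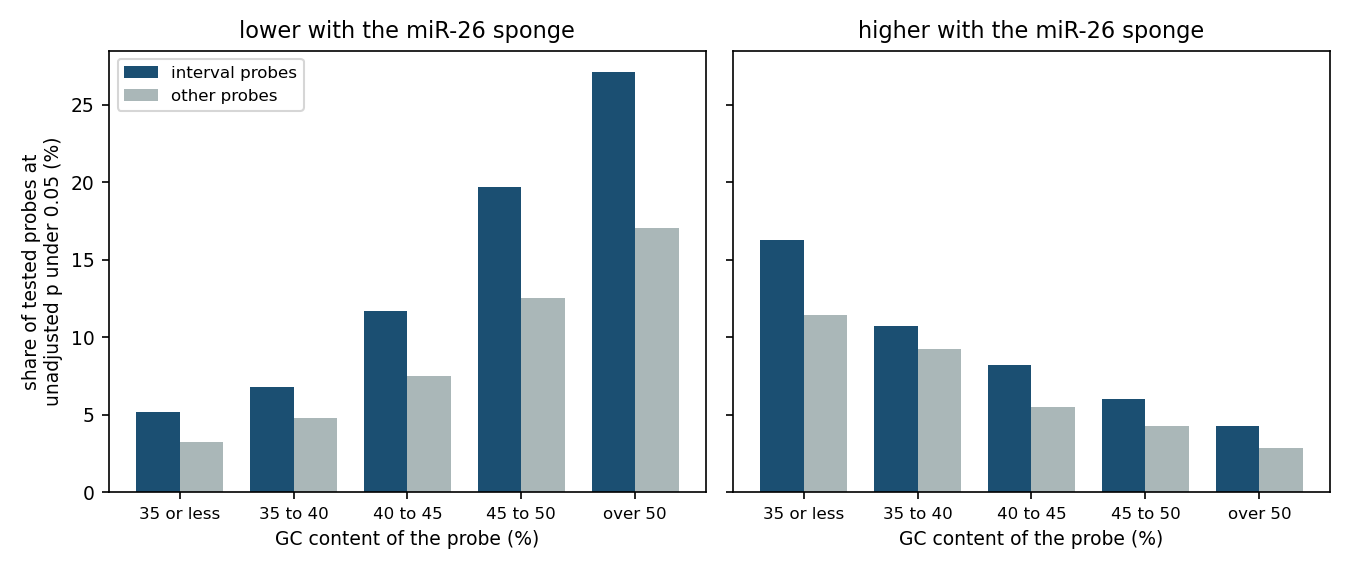
Share of tested probes (%) at an unadjusted p under 0.05 in limma that were lower (left) or higher (right) with the miR-26 sponge than with the control vector, by GC content of the probe, for interval probes (dark) and other probes (light). The lower share of interval probes goes from 5.15% at up to 35% GC to 27.1% above 50% GC, and that of the other probes from 3.22% to 17.0%.

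The largest sponge changes are given although they did not pass. The probe chr19:5845052-5845111, forward in chr19:5771425-5848475 and 2488 bases from the probe of Neat1 on the opposite strand, read 9.72 and 9.59 in control, 9.28 and 9.37 with miR-26a and 10.91 and 11.40 with the sponge. Both sponge arrays lay above the rest. The change was 1.5 ± 0.15 (adjusted p = 0.115), against 0.10 for Neat1 itself, and the difference of miR-26a from the sponge was -1.83 (adjusted p = 0.0035). The probe in chr2:115892960-115911647 forward read 9.49 and 9.53, 9.61 and 9.60, and 10.86 and 10.60 in the same order, a change of 1.22 ± 0.09 (adjusted p = 0.0724).

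The other 3 of the largest higher values were less even between experiments. In chr6:145647711-145756861 reverse the differences from control were 1.89 and 1.18 in experiments 1 and 2. In chrX:157038750-157039018 forward they were 2.12 and 0.24, and in chr15:61984389-62102500 forward, 6995 bases from Pvt1, a noncoding neighbour of Myc, 0.25 and 1.72. The last 2 intervals therefore each rest on a single sponge array.

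Of the 5 largest lower values with the sponge, 4 were probes with at least 70.0% GC. They lay in chr14:78924115-78938125 forward (81.7% GC, -0.98, adjusted p = 0.107), chr1:137482591-137625604 forward (70.0% GC, -0.94, adjusted p = 0.0988), chr5:124697599-124700029 forward (81.7% GC, -0.89, adjusted p = 0.0914) and chr16:8738782-8830148 reverse (81.7% GC, -0.87, adjusted p = 0.195). The chromosome 14 probe is the one that also fell with miR-26a, from 6.99 and 6.77 in control to 6.07 and 6.0, and it read 5.85 and 5.94 with the sponge. In the fifth, chr7:111526943-111545093 forward (51.7% GC, -0.95, adjusted p = 0.278), the differences were -0.34 and -1.57 in experiments 1 and 2. The part of base composition in these single changes was not tested.

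With the sponge, the changes of several probes of an interval had the same sign on 337 of 620 strands (54.4%, named genes 57.4%), with a median SD of 0.10, and on 169 of 360 strands (46.9%) with at least 3 tested probes. The difference between these shares and those for miR-26a was not tested, since both contrasts use the same control arrays.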

How the data were processed

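Total RNA of 6 samples was labelled with Cy3 and hybridised to single-colour Agilent G3 Mouse 8 x 60K arrays of 1 slide. The authors deposited the scanner files, which hold intensity as mean, background and background-subtracted processed signal of every spot (Agilent Feature Extraction, version 10.7.1.1 in the submitters' processing notes), and a table of their quantile-normalised processed values, which the file holds as linear intensity. Interval and probe positions are those of the array design (mm9). Whether an interval is exonic or intronic in an annotation was not analysed here.

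Processed signals were quantile-normalised, log2-transformed and averaged over unflagged spots (8 spots of interval probes were flagged as outliers). A probe entered the tests if its processed signal exceeded 50 on 4 or more arrays and the scanner called it well above background at least once. Changes were estimated in limma 3.58.1 (R 4.3.3) in a single fit of the 6 arrays, blocked by experiment, because the study's methods normalise to the control of each experiment, and Benjamini-Hochberg adjustment ran over all 20168 tested probes. Deviations of same-numbered arrays from their group means correlated at 0.38, 0.59 and 0.45 for the 3 pairs of groups, so the numbers of the labels pair the arrays. The scripts were tested on simulated data.

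Named probes were the up to 10 largest falls and rises per contrast past the threshold with the same direction in both experiments, the 5 largest of each at an unadjusted p under 0.05 where fewer than 3 passed, the 6 strands with the most detected probes, up to 8 intervals with both strands tested and a call, and the nearest named genes; strands with several calls that are named beyond these (on chromosomes 1, 4, 6, 14 and 17, and the second chromosome 8 interval) were picked with their values in view. Members and gene lists were chosen with earlier results of these data known. A probe's neighbour was the nearest tested probe named by a gene, between probe midpoints, and hairpin and promoter matches were exact, on both strands. With 2 arrays a group, their number limits the precision. The p-values of the blocked fit rest on the spread between arrays that remains after the difference between the 2 experiments is removed.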

Additional observations from a re-analysis of the deposited data

How the results depend on the processing

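Counts of interval probes are given as lower and higher. For miR-26a at an adjusted p under 0.05 (116 and 88), they were 21 and 3 with no replicate block, 40 and 17 for probes well above background on all 6 arrays with no signal limit, 52 and 40 of 1509 with the probes of an interval strand averaged, and 0 and 0 with no filter, with the unpaired test of the legends and with a test of the 2 log ratios. Leaving out an array gave 3 to 160 lower and 1 to 79 higher. Scaling to the 75th percentile, normexp, the authors' values, a limit of 2 arrays and removal of the GC trend (chosen after seeing the data) kept the counts within 1.5 times. For the sponge at an adjusted p under 0.05 (0 and 0), normexp gave 6 and 3, a limit of 2 arrays 1 and 2, and leaving out an array 0 to 6 and 0 to 5. At an unadjusted p under 0.05 (430 and 231), the sponge counts were 718 and 639 with no filter, 156 and 53 with the unpaired test, 118 and 61 with the log ratios, 270 and 117 with averaged strands, 303 and 89 with no replicate block, 287 and 261 without the GC trend, and 205 to 522 and 152 to 291 leaving out an array. Fewer features enter the averaged fit, and for the other settings the cause was not tested. Detection on all 6 arrays (4740) became 7165 on at least 1 array and 2797 by signal, and intervals with both strands detected (419) became 684 and 205. Of 480 values of the 30 leading probes under these alternatives, 0 changed sign, 339 kept their side of the threshold, 124 lost their call and 17 gained it. The 30 include 10 sponge probes that had no call, which kept their side wherever they stayed uncalled. With no filter, with the unpaired test and with the test of the 2 log ratios, 20 probes lost their call and only those 10 stayed the same. Settings that alter only the block, the test or the probe filter leave the estimate itself unchanged, so no sign could change there. The arrays number 2 a group, which limits the precision of each change.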
